A study of Mus musculus with 8 samples.

Results

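Phase II conjugation enzymes attach a polar group to drugs, toxins, bilirubin, steroids and lipids, which makes most of these molecules easier to excrete. Glucuronosyltransferases transfer a sugar from a UDP-sugar, glutathione transferases join glutathione to reactive electrophiles, and sulfotransferases transfer sulfate from the donor PAPS. The liver is the main organ of this work, while in the brain members of the same families make myelin lipids and handle products of lipid oxidation. The members described here were every probe of the array whose gene symbol begins with Ugt, Gst (classes a, k, m, o, p, t and z), Mgst or Sult followed by a number, so the choice used gene names and no measured value. The rule gave 72 of the 25697 probes, for 52 genes: 21 glucuronosyltransferase probes (16 genes), 34 glutathione transferase probes (24 genes) and 17 sulfotransferase probes (12 genes).

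RNA was measured in liver and hypothalamus of male mice with a knockout of Fmod, the gene of fibromodulin, on a C57BL/6 background at 13 weeks of age. There were 4 liver and 4 hypothalamus samples, each on its own single-colour Illumina bead array. All 8 samples carry the knockout, and wild-type mice were not analysed here, so the values describe the tissues of knockout mice and no effect of the genotype. Neither Fmod probe passed the detection filter. Which part of the gene they read, and which part was deleted, is not known here, so they do not check the genotype.

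Values are log2 intensities after background correction and quantile normalization of all 8 arrays together, and differences are liver minus hypothalamus. A probe counted as detected on an array where its deposited detection p-value was under 0.05, and it was tested if detected on at least 4 of the 8 arrays. The test was limma's moderated test with Benjamini-Hochberg adjustment over all 13498 tested probes, with calls at an adjusted p under 0.05. The series gives 4 mice with both organs dissected, and the labels tie no sample to a mouse, so p-values measure the spread between these samples. In whole-tissue RNA, fewer cells of a type and less RNA per cell cannot be told apart.

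Within a tissue the arrays correlated at 0.976 to 0.993, and between tissues the highest correlation was 0.455. Liver arrays detected 48 to 50 of the 72 member probes, and hypothalamus arrays 33 to 34. The summed signal of 10 hepatocyte markers was 140883 to 167703 in liver and 3649 to 18376 in hypothalamus. Alb, Apoa2, Cps1, Cyp2e1, Pck1 and Tat were detected on no hypothalamus array. Ass1, Apoa1 and Ttr were detected on all 4 hypothalamus arrays and Hnf4a on 3. All 9 tested hepatocyte markers were higher in liver, and Tat was not tested. For 10 neuron markers the summed signal was 1332 to 1548 in liver and 46637 to 59797 in hypothalamus. Slc17a6, Stmn2, Gad1 and Elavl4 were detected on no liver array. Rbfox3 was detected on 3 liver arrays, Syt1 on 2, and Eno2 and Tubb3 on 1 each. The neuron markers Snap25 and Gad2 were detected on no array of either tissue. One array stood apart within its tissue: hypothalamus replicate 3 read Ttr, a transcript shared by liver and choroid plexus, at 14.32, against 5.42, 7.88 and 7.79 on hypothalamus replicates 1, 2 and 4. It was also the highest of the 4 for the choroid plexus genes Kl (8.18, against 5.81 to 6.09) and Sostdc1 (7.57, against 5.25 to 5.49). Clic6 and Folr1 were highest there too, while Foxj1 was highest on replicate 1 (5.64, against 5.43 on replicate 3). Of the 5 choroid plexus and ependyma markers on the array, 3 were higher in hypothalamus and 2 were not called, with summed signals of 642 to 754 in liver and 2583 to 3313 in hypothalamus, and their part in the results was not tested. With and without that array the tissue test called 43 member probes higher in liver and 9 higher in hypothalamus.

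The 250 bases before the RefSeq start are shown first for 6 members. They were chosen together with their motifs after the values were seen, and they do not stand for all members. Ugt3a1, Ugt2a3, Ugt1a10 and Gsta3 were far higher in liver, and Gstm5 and Ugt8a were higher in hypothalamus. The sequences are from RefSeq, build GRCm38.p6, read 5′ to 3′ on the strand of the gene. They lie at chr15:9279579-9279828 (plus strand) for Ugt3a1, chr5:87337196-87337445 (minus) for Ugt2a3, chr1:88055161-88055410 (plus) for Ugt1a10, chr1:21240335-21240584 (plus) for Gsta3, chr3:107895604-107895853 (plus) for Gstm5 and chr3:125938653-125938902 (minus) for Ugt8a. Capitals mark the motif of the hepatocyte factor HNF1, GTTAAT followed after any 2 bases by TTAA on either strand, in Ugt3a1 and Ugt2a3, and its core GTTAAT in Ugt1a10 and Gsta3. In Gsta3 and Gstm5 they also mark the antioxidant response element core TGACNNNGC, where the factor NRF2 binds, and in Ugt8a the GC box GGGCGG. Other matches are in lower case, such as the GC box in Gstm5 and a Ugt8a copy that overlaps a marked one. The core GTTAAT occurred in 8 of the 48 members with a window, and Ugt2b36, the member with the largest difference, had none.
Ugt3a1: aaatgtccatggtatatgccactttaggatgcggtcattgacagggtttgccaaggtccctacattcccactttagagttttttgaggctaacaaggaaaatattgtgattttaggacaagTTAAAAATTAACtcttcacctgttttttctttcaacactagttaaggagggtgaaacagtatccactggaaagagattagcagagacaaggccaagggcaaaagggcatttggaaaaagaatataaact
Ugt2a3: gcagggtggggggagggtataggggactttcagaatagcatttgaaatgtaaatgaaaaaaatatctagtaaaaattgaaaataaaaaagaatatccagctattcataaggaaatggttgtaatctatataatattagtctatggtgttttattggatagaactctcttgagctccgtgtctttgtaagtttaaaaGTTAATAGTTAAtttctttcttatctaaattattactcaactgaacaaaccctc
Ugt1a10: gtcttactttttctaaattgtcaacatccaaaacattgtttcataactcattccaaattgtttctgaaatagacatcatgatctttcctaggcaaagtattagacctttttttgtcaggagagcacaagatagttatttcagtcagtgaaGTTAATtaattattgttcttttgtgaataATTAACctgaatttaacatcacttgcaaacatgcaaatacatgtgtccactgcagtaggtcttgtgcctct
Gsta3: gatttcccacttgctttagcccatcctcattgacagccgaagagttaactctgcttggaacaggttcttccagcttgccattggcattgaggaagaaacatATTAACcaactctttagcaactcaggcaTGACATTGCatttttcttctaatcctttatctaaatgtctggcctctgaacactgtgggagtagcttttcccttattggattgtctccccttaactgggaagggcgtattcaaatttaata
Gstm5: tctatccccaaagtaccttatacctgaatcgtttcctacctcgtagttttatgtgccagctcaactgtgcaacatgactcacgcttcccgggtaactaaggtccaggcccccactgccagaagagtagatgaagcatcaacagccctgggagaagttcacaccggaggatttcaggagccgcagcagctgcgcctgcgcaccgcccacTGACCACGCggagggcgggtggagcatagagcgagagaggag
Ugt8a: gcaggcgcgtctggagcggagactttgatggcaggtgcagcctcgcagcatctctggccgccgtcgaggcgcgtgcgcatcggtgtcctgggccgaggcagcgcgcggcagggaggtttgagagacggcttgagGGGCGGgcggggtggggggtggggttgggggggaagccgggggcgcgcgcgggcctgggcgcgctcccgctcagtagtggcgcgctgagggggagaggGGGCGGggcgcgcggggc

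Most conjugation enzymes that could be tested were higher in liver, and a small set was higher in hypothalamus. The detection filter passed 54 member probes of 39 genes, and 18 probes, including all probes of 13 genes, were not tested. Of all 13498 tested probes, 79.6% were called different between the tissues, 37.8% higher in liver and 41.8% higher in hypothalamus. Among the 54 member probes, 43 were higher in liver, 9 were higher in hypothalamus and 2 were not called. The groups did not overlap for 50 of the 54 member probes, against 74.4% of all tested probes. A total of 19 member probes were detected on all 4 liver arrays and no hypothalamus array (4.11% of all tested probes), and 4 showed the reverse (17.3%). A probe that passes the filter through only 1 tissue all but has to differ, so these counts describe where the enzymes were seen and support nothing further.

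Detection on all 8 arrays does not depend on 1 tissue alone. It held for 25 member probes, of which 21 were higher in liver, 3 were higher in hypothalamus, and 1 (Gsta4) had no call. Among all 7992 probes detected on all 8 arrays, 46.6% were higher in liver and 32.9% higher in hypothalamus. A difference beyond 2-fold, tested with limma's treat, was found higher in liver for 43 of the 54 member probes and higher in hypothalamus for 4. Of all tested probes 41.5% passed that test, 19.4% higher in liver and 22.1% higher in hypothalamus. With 1 probe per gene, 32 of 39 genes were higher in liver, 6 were higher in hypothalamus, and Gsta4 was not called.

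**Figure D1:**
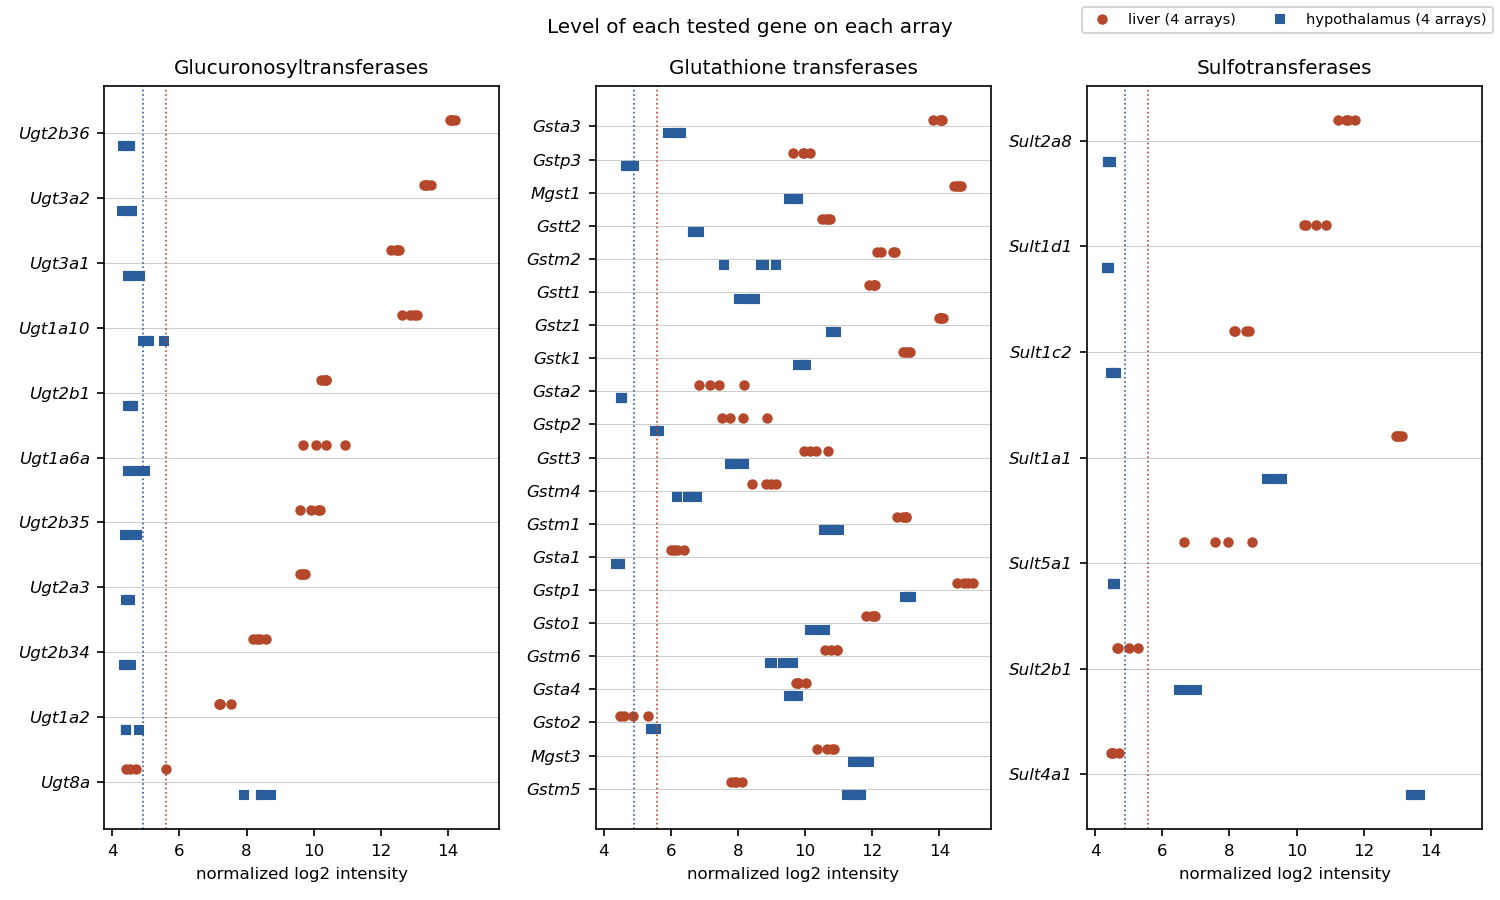
Normalized log2 intensity of the 39 tested member genes (probe of highest mean) on each array, with liver as circles above hypothalamus as squares in each row and genes ordered by difference. Dotted lines mark, for each tissue, the mean over its arrays of the lowest level among detected probes. Most liver points lie right of the hypothalamus points, and Ugt8a, Gstm5, Mgst3, Gsto2, Sult2b1 and Sult4a1 at the foot of their panels are the exceptions.

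Of 14 tested glucuronosyltransferase probes, 13 were higher in liver and 1, for Ugt8a, was higher in hypothalamus, with a median difference of 5.51 against -0.07 over all tested probes. Of the 13, 11 were detected on no hypothalamus array and so passed the filter through liver alone, and only the Ugt1a10 probe was detected on all 8 arrays. Where a probe was missing from some or all arrays of the dimmer tissue, the fold is a bound, written "at least". It sets the mean of the brighter tissue against a mean over the dimmer arrays in which each array counts with the lowest level of its detected probes, or with the probe's own level if that is higher. Such bounds hold only within this normalization.

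Ugt2b36, of the subfamily that handles steroids and bile acids, read 14.20, 14.13, 14.10 and 14.08 on the liver arrays, against 4.51, 4.32, 4.52 and 4.34 on the hypothalamus arrays (ILMN_1235719). All 4 liver arrays were bright and no hypothalamus array detected it. The difference was 9.70 (SE 0.10, adjusted p = 1.17e-12), at least 599-fold, and the other Ugt2b36 probe gave at least 491-fold.

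Ugt3a2 and Ugt3a1 are neighbours on chromosome 15, and their human counterparts use UDP-sugars other than UDP-glucuronic acid. Ugt3a2 read 13.38, 13.28, 13.49 and 13.35 in liver, against 4.56, 4.30, 4.53 and 4.57 in hypothalamus, a difference of 8.89 (SE 0.11, adjusted p = 1.47e-12) and at least 356-fold. Ugt3a1 read 12.45, 12.51, 12.32 and 12.55 in liver, against 4.46, 4.84, 4.50 and 4.51 in hypothalamus, a difference of 7.88 (SE 0.12, adjusted p = 4.82e-12) and at least 188-fold. For both genes the 4 arrays of each tissue lay close together and no hypothalamus array detected them.

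Ugt1a10 was the glucuronosyltransferase detected on all 8 arrays. Its probe read 12.99, 12.88, 13.07 and 12.64 in liver, against 5.09, 5.53, 4.93 and 5.04 in hypothalamus, a 215-fold difference (7.75, SE 0.16, adjusted p = 3.3e-11). The hypothalamus values were just above the detection limit and far from the liver values. Genes of the Ugt1a locus on chromosome 1 share their last exons, and the positions of the probes are not known here, so a Ugt1a probe may read several of them.

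The phenol-conjugating Ugt1a6a was called higher in liver by each of its 3 probes, with differences of 5.57, 4.53 and 4.71 (at least 40.9-fold, 16.6-fold and 20.6-fold). The probe ILMN_1212835 spread most within liver, at 10.92, 10.08, 10.38 and 9.69, against 4.70, 4.47, 4.97 and 4.66 in hypothalamus, where 1 array detected it. Liver replicate 1 was the highest of the 4 and replicate 4 the lowest, and the tissues did not overlap. Ugt1a2 was called higher in liver by ILMN_1214888 (2.78, SE 0.14, at least 5.22-fold), while its other probe was detected on no array.

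The Ugt2 genes lie side by side on chromosome 5. Ugt2b1 read 10.37, 10.38, 10.21 and 10.31 in liver, against 4.62, 4.61, 4.55 and 4.47 in hypothalamus, a difference of 5.76 (SE 0.10, adjusted p = 8.56e-12) and at least 42.8-fold. Ugt2b35 was at least 33.3-fold higher in liver, Ugt2a3 at least 27.2-fold and Ugt2b34 at least 11.1-fold. None of these genes was detected on a hypothalamus array. In the RefSeq gene order Ugt2b34, Ugt2b1, Ugt2b35 and Ugt2b36 stand in a row, followed by Ugt2b5, Ugt2b37, Ugt2a3, Ugt2b38, Ugt2a1 and Ugt2a2. In that second stretch only Ugt2a3 was tested, and the probes of the other genes, together with a further Ugt2a3 probe, were detected on no array.

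Ugt8a encodes the ceramide galactosyltransferase that makes galactocerebroside, a main lipid of myelin. It read 5.60, 4.72, 4.53 and 4.40 in liver, where only replicate 1 detected it, against 8.42, 8.41, 8.73 and 7.94 in hypothalamus. The hypothalamus arrays lay entirely above the liver arrays, and the difference was -3.56 (SE 0.27, adjusted p = 6.73e-07), at least 6.85-fold higher in hypothalamus. It was -3.83 without liver replicate 1. Beside it, the oligodendrocyte marker Mog was detected on no liver array and read 9.76, 9.82, 10.32 and 9.48 in hypothalamus, highest and lowest on the same arrays as Ugt8a. The other 4 markers were also highest on hypothalamus replicate 3, while the lowest array was replicate 4 for Cldn11, replicate 1 for Mag and Mobp and replicate 2 for Mbp. All 5 oligodendrocyte markers on the array were higher in hypothalamus, with summed signals of 675 to 742 in liver and 43921 to 46935 in hypothalamus, and their part in the Ugt8a difference was not tested.

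The glutathione transferases were the class most often seen in both tissues. Of 31 tested probes, 23 were detected on all 8 arrays, 24 were higher in liver, 5 were higher in hypothalamus and 2 were not called. Their median difference was 2.36, and over the 23 probes detected everywhere it was also 2.36, with 19 higher in liver, 3 higher in hypothalamus and 1 not called.

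Among the alpha class, Gsta3, which in mice conjugates the aflatoxin epoxide, read 14.07, 13.82, 14.04 and 14.02 in liver, against 6.31, 6.19, 6.24 and 5.93 in hypothalamus. The tissues were wide apart although all 8 arrays detected it, with a 226-fold difference (7.82, SE 0.12, adjusted p = 5.16e-12). Its other probe gave at least 42.2-fold, with 1 hypothalamus array detected. Gsta2 was at least 5.66-fold higher in liver (2.87, SE 0.25) and Gsta1 at least 2.41-fold. Gsta2 varied within liver, at 8.18 on replicate 1, against 7.42, 7.17 and 6.83 on the others.

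Gsta4, which conjugates the lipid peroxidation product 4-hydroxynonenal, was the exception in this class. It read 10.03, 9.79, 9.80 and 9.72 in liver, against 9.51, 9.60, 9.79 and 9.68 in hypothalamus. The groups overlapped, and the difference of 0.19 (SE 0.11, adjusted p = 0.147) was not called. Its direction depended on the scaling: it was -0.20 with median scaling (not called), and the table of values that the authors normalized gave -0.30 (adjusted p = 0.00681).

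The mu class genes lie together on chromosome 3, in the RefSeq order Gstm5, Gstm6, Gstm3, Gstm2, Gstm1 and Gstm4 with 1 gene outside the members between the first pair. Gstm5, at one end, read 7.79, 7.92, 7.91 and 8.12 in liver, against 11.26, 11.66, 11.45 and 11.42 in hypothalamus. All hypothalamus arrays were well above all liver arrays, an 11.4-fold higher level in hypothalamus (-3.51, SE 0.12, adjusted p = 1.65e-09). Gstm6 (1.57 and 1.55 for its 2 probes), Gstm2 and Gstm4 (4.91-fold) were higher in liver, and Gstm3 was detected on no array.

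Gstm2 was called higher in liver by each of its 3 probes, by 14.4-fold, 14.7-fold and 17.0-fold. ILMN_2624854 read 12.15, 12.66, 12.27 and 12.61 in liver, against 7.60, 8.78, 9.14 and 8.68 in hypothalamus, a difference of 3.88 (SE 0.30, adjusted p = 8.06e-07). Within hypothalamus, replicate 1 was the lowest on all 3 probes and replicate 3 the highest. The transporter gene Slc6a13, listed as a meningeal marker, read 6.83, 8.40, 9.10 and 7.21 on the same arrays, also lowest on replicate 1 and highest on replicate 3. It was brighter in liver, at 12.68 to 12.79, and the summed signal of the 5 meningeal and smooth muscle markers was 6333 to 8623 in liver and 3169 to 4525 in hypothalamus. Of the other markers, Acta2 and Col1a1 were also lowest on hypothalamus replicate 1 and highest on replicate 3. Tagln was highest on replicate 2 (5.04), and Col1a2 was lowest on replicate 4 (4.46). Col1a1, Tagln and Col1a2 did not pass the filter. The part of these markers in the Gstm2 spread was not tested.

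Gstm1 gave different calls by probe. ILMN_1228233 read 12.91, 12.74, 13.00 and 13.02 in liver, against 10.79, 10.58, 10.90 and 11.00 in hypothalamus, a 4.29-fold higher level in liver (2.10, SE 0.12, adjusted p = 1.03e-07). ILMN_2626491, detected on 2 liver arrays and all 4 hypothalamus arrays, read 6.45, 4.86, 5.67 and 5.24 in liver, against 5.45, 6.31, 5.42 and 6.08 in hypothalamus, with a difference of -0.26 (SE 0.34, adjusted p = 0.487). The groups were apart on the first probe and overlapped on the second. Mu class genes are close copies of each other, and cross-hybridisation between them was not tested. The same holds for the pi class genes.

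The pi class was higher in liver throughout its 5 probes. Gstp1, a general detoxifying transferase, read 14.99, 14.74, 14.86 and 14.51 in liver, against 12.97, 13.15, 13.14 and 13.07 in hypothalamus (ILMN_2677046), a 3.23-fold difference (1.69, SE 0.12, adjusted p = 5.47e-07). The other Gstp1 probes gave 4.09-fold and at least 13.7-fold. Gstp3 read 9.94, 9.98, 9.64 and 10.14 in liver, against 4.90, 4.67, 4.81 and 4.71 in hypothalamus, at least 32.5-fold higher in liver (5.15, SE 0.13, adjusted p = 1.3e-10). Gstp2 was 5.53-fold higher in liver (2.47, SE 0.25) and varied there, at 8.15, 7.51, 8.87 and 7.76, while the hypothalamus arrays lay between 5.54 and 5.64.

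The tested theta, zeta and kappa enzymes were detected in both tissues and were all higher in liver. Gstt2 read 10.50, 10.63, 10.74 and 10.67 in liver, against 6.84, 6.65, 6.66 and 6.78 in hypothalamus, a 15.0-fold difference (3.91, SE 0.10, adjusted p = 2.07e-10). Gstt1, which acts on small halogenated compounds, read 12.07, 11.89, 12.05 and 12.07 in liver, against 8.04, 8.50, 8.35 and 8.34 in hypothalamus, 13.1-fold (3.71, SE 0.12, adjusted p = 1.02e-09). Gstz1, an enzyme of tyrosine breakdown, was 9.17-fold higher, Gstk1, found in mitochondria and peroxisomes, 8.52-fold and Gstt3 5.14-fold. Gstt4, which lies between Gstt1 and Gstt2 on chromosome 10, was detected on no array.

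The omega pair, neighbours on chromosome 19, were called in opposite directions. Gsto1 read 12.09, 12.05, 11.98 and 11.81 in liver, against 10.13, 10.59, 10.32 and 10.56 in hypothalamus, 2.99-fold higher in liver (1.58, SE 0.13, adjusted p = 1.59e-06). Gsto2, a dehydroascorbate reductase, was seen by both of its probes on each of the 4 hypothalamus arrays and on none from liver. ILMN_2938904 read 5.33, 4.47, 4.87 and 4.59 in liver, against 5.46, 5.56, 5.41 and 5.46 in hypothalamus (-0.66, SE 0.18, adjusted p = 0.0059). The liver values stayed below the hypothalamus values, but both were close to the detection limit, and no fold is given. The lowest level of a detected probe was 5.50 to 5.69 on liver arrays and 4.86 to 4.92 on hypothalamus arrays. A level like that in hypothalamus could thus go undetected in liver.

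The microsomal members also differed in direction. Mgst1, which protects membranes from lipid peroxides, read 14.66, 14.53, 14.60 and 14.44 in liver, against 9.65, 9.77, 9.51 and 9.79 in hypothalamus (ILMN_2940195), 29.3-fold higher in liver (4.87, SE 0.11, adjusted p = 6.39e-11). Its other probe gave 104-fold. Mgst3 read 10.87, 10.36, 10.65 and 10.80 in liver, against 11.61, 11.44, 11.92 and 11.54 in hypothalamus (ILMN_2615035), 1.94-fold higher in hypothalamus (-0.96, SE 0.15, adjusted p = 0.000193). On its other probe the groups overlapped, and the difference was -0.60 (SE 0.19, adjusted p = 0.0135). Mgst2 was detected on 2 hypothalamus arrays alone and was not tested.

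**Figure D2:**
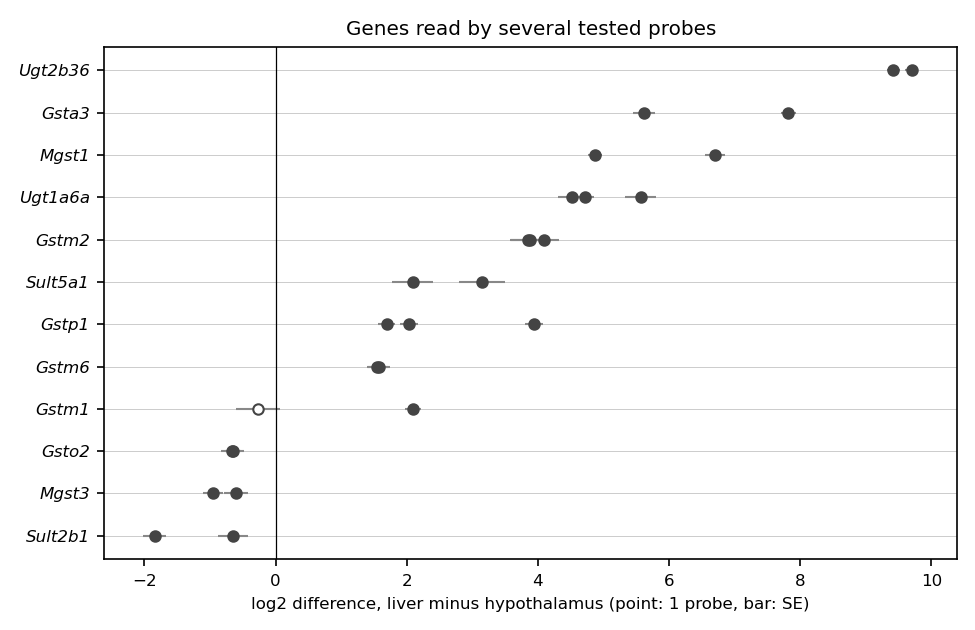
Log2 difference, liver minus hypothalamus, of each tested probe for the 12 member genes with more than 1 tested probe, where bars are the SE and an open point was not called. Probes of a gene lie on the same side of 0 except those of Gstm1, and Gsta3, Mgst1 and Gstp1 show that probes of a gene can differ in size.

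Of 9 tested sulfotransferase probes, 6 were higher in liver and 3 were higher in hypothalamus, with a median difference of 3.15. Only Sult1a1 was detected on all 8 arrays, and 6 of the 8 untested probes were detected on no array.

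Sult4a1, a brain-enriched member whose substrate is not settled, read 4.47, 4.49, 4.53 and 4.72 in liver, against 13.44, 13.41, 13.65 and 13.67 in hypothalamus. No liver array detected it and every hypothalamus array was bright. The difference was -8.99 (SE 0.11, adjusted p = 1.68e-12), at least 249-fold higher in hypothalamus. All 7 tested neuron markers were also higher in hypothalamus, and their part in the Sult4a1 difference was not tested.

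Sult2a8, a bile acid sulfotransferase of mouse liver, read 11.22, 11.54, 11.73 and 11.48 in liver, against 4.41, 4.39, 4.40 and 4.48 in hypothalamus, at least 96.5-fold higher in liver (7.07, SE 0.12, adjusted p = 1.12e-11). Sult1d1, which sulfates catecholamines in mice, read 10.88, 10.29, 10.21 and 10.58 in liver, against 4.37, 4.37, 4.35 and 4.40 in hypothalamus, at least 48.2-fold (6.12, SE 0.15, adjusted p = 1.24e-10). Neither gene was detected on a hypothalamus array. A further Sult1d1 probe was detected on 2 liver arrays and was not tested.

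Sult1a1, the main phenol sulfotransferase, read 12.97, 13.15, 13.06 and 13.01 in liver, against 9.11, 9.42, 9.47 and 9.56 in hypothalamus, 12.6-fold higher in liver (3.66, SE 0.12, adjusted p = 1.11e-09). It was present in both tissues with no overlap. Sult1c2 was at least 10.9-fold higher in liver (3.82, SE 0.13, adjusted p = 1.51e-09).

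Sult5a1 had the widest spread within liver among the sulfotransferases detected there. ILMN_2922178 read 6.63, 7.95, 7.56 and 8.66 in liver, against 4.54, 4.52, 4.54 and 4.60 in hypothalamus, at least 6.96-fold higher in liver (3.15, SE 0.35, adjusted p = 1.44e-05). Its other probe read 6.01, 7.24, 6.65 and 7.64 on the liver arrays, in the same order, and gave at least 3.82-fold. Both probes were lowest on liver replicate 1 and highest on replicate 4, the reverse of Gsta2 and of 2 of the 3 Ugt1a6a probes. The third Ugt1a6a probe, ILMN_2795317, read 9.16, 9.37, 9.11 and 9.41 on the liver arrays, highest on replicate 4 and lowest on replicate 3. Liver replicate 1 also read the haemoglobin gene Hba-a1 at 14.37, against 13.40 to 13.52 on the other liver arrays. Of the other blood markers, Slc4a1 was highest there too, at 6.68 against 5.22 to 6.31, while Alas2 was lowest there, at 10.73 against 11.04 to 11.26. The summed signal of the 3 blood markers on the array was 14313 to 22860 in liver and 14381 to 24448 in hypothalamus, and their part in these spreads was not tested. Without that array Sult5a1 differed by 3.51, Ugt1a6a (ILMN_1212835) by 5.35 and Gsta2 by 2.61.

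Sult2b1, which sulfates cholesterol and pregnenolone, was higher in hypothalamus on both tested probes. A further probe, ILMN_2766827, was detected on 1 hypothalamus array and no liver array. It differed by -0.15 and was not tested. ILMN_2686353 read 4.64, 4.67, 5.02 and 5.28 in liver, against 6.82, 6.62, 7.04 and 6.49 in hypothalamus, at least 2.23-fold higher in hypothalamus (-1.84, SE 0.18, adjusted p = 4.83e-06). On ILMN_2791179 the tissues overlapped, with a difference of -0.65 (SE 0.23, adjusted p = 0.0238). That call was lost without liver replicate 3 or 4 or hypothalamus replicate 1 or 2, with adjusted p of 0.0578 to 0.0709, and with cyclic loess (adjusted p = 0.226).

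The sulfotransferases below the detection filter were Sult1b1, Sult1c1, Sult1e1, Sult2a6 and Sult3a1. Sult1e1 is the oestrogen sulfotransferase, and all 4 arrays of both tissues left it undetected. Sult1b1, Sult1d1 and Sult1e1 are neighbours on chromosome 5, and only Sult1d1 passed the filter.

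**Figure D3:**
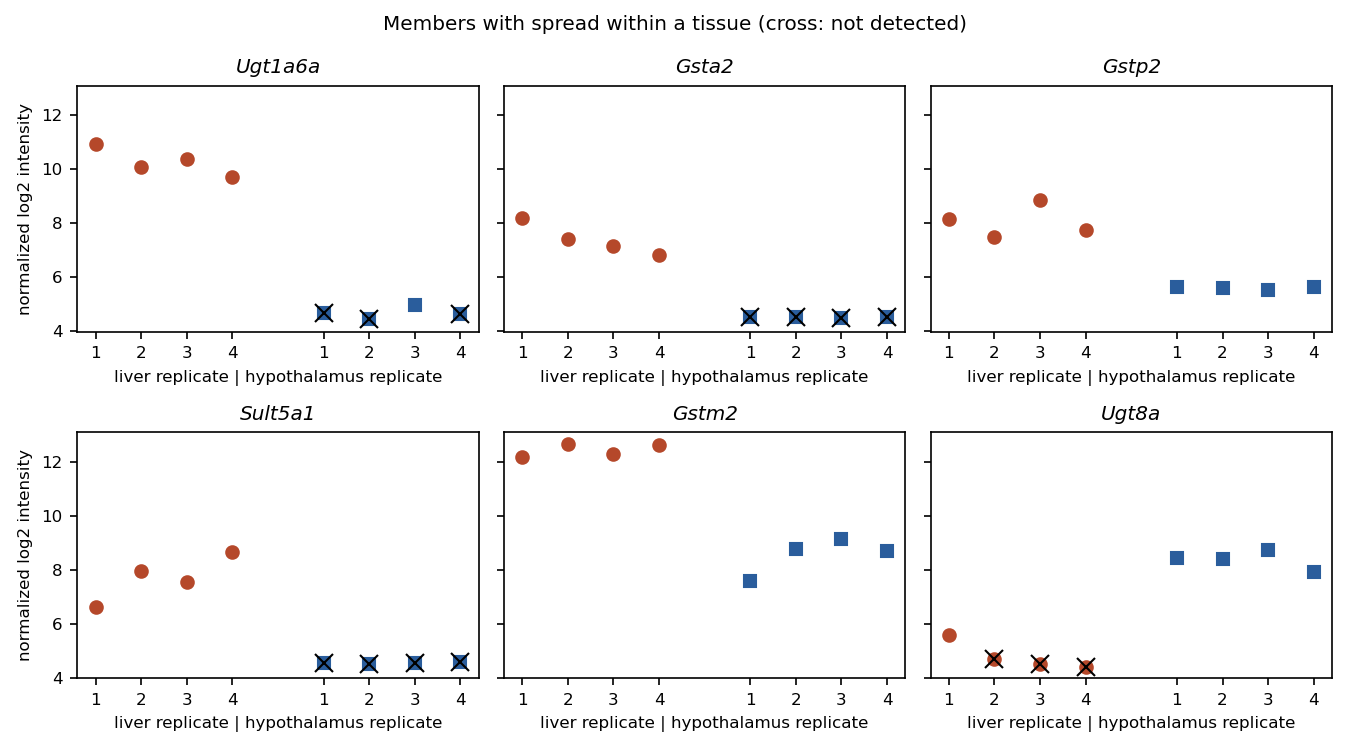
Normalized log2 intensity on each array for 6 members chosen for spread within a tissue, with liver replicates 1 to 4 left of hypothalamus replicates 1 to 4, where a cross marks an array that did not detect the probe. Sult5a1 is lowest and the plotted probes of Ugt1a6a and Gsta2 are highest on liver replicate 1, Gstm2 is lowest on hypothalamus replicate 1, and no tissue difference is bridged by this spread.

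The genes that surround these enzymes in the pathway were described from lists chosen by function. Over all tested probes, 37.8% were higher in liver and 41.8% higher in hypothalamus. A listed gene that passed the filter through only 1 tissue all but has to differ, so the counts are descriptions. Of 10 tested genes that supply cofactors, 9 were higher in liver and 1 was higher in hypothalamus, with a median difference of 2.70. Cth and Cbs, which make the cysteine needed for glutathione, were at least 35.0-fold and 29.0-fold higher in liver, and Gclm, a subunit of the enzyme that starts glutathione synthesis, 10.3-fold. Papss1, which makes the sulfate donor PAPS, read 8.60, 8.22, 8.53 and 8.26 in liver, against 11.28, 11.32, 11.52 and 11.37 in hypothalamus, and was higher in hypothalamus (-2.97, SE 0.12, adjusted p = 6.41e-09). Papss2, the other PAPS synthase gene of the list, went the other way, at least 5.28-fold higher in liver (2.40, SE 0.21, adjusted p = 2.63e-06).

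Among 11 tested enzymes of other conjugation reactions, 10 were higher in liver and none higher in hypothalamus, with a median of 6.49. Gnmt, a glycine methyltransferase, was at least 916-fold higher in liver, Glyat, which conjugates acyl groups with glycine, 292-fold and Inmt, an indole methyltransferase, at least 218-fold. Tpmt, the thiopurine methyltransferase, was not called. It read 5.46, 10.75, 4.98 and 10.85 in liver, against 4.995, 5.928, 4.702 and 5.656 in hypothalamus (2.69, SE 1.31, adjusted p = 0.0838). Its liver arrays thus fell into a high and a low pair. Replicates 2 and 4 were the highest in hypothalamus too, over a narrower range. The labels tie no sample to a mouse, and what lies behind the split was not tested. Tpmt was called without liver replicate 1 (3.54, adjusted p = 0.0303), without liver replicate 3 (3.70, adjusted p = 0.0169), with cyclic loess (3.31, adjusted p = 0.0351) and with the replicate number as a block (2.69, adjusted p = 0.0265).

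Of 8 tested enzymes that cleave or further process conjugates, 6 were higher in liver and 2 higher in hypothalamus, with a median of 1.69. The peptidase Anpep was at least 53.8-fold, the cysteine conjugate acetyltransferase Nat8 8.58-fold and the aminoacylase Acy1 5.04-fold higher in liver. Ggt7, of the glutamyltransferase family, was at least 17.2-fold higher in hypothalamus (-5.13, SE 0.12, adjusted p = 7.91e-11). The sulfatase gene Arsb had probes called in opposite directions. Of 8 efflux pumps on the array, 4 were tested. Abcc3, Abcc2 and Abcc6 were at least 113-fold, 46.1-fold and 27.1-fold higher in liver. Abcc5 was higher in hypothalamus (-4.21, SE 0.16, adjusted p = 3.09e-09). No hypothalamus array detected Abcc3, Abcc2 or Abcc6, so these passed the filter through liver alone.

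Of 13 tested transcription factors of hepatocytes and of the xenobiotic response, 11 were higher in liver, Keap1 was higher in hypothalamus (-0.58) and Mafg was not called, with a median of 3.39. Foxa3, the bile acid receptor gene Nr1h4 and Hnf4a were at least 271-fold, 189-fold and 114-fold higher in liver. The list holds hepatocyte factors by choice, and 8 of its 16 genes on the array were detected on no hypothalamus array. Of the 9 tested targets of NRF2 outside the enzyme classes, 4 were higher in liver, 3 higher in hypothalamus and 2 not called, close to the shares of 37.8% and 41.8% over all tested probes, and their median was 0.26. The epoxide hydrolase Ephx1 was 14.7-fold, the haem oxygenase Hmox1 at least 2.85-fold and the malic enzyme Me1 2.48-fold higher in liver. Slc7a11, the cystine transporter, was at least 9.36-fold higher in hypothalamus, and Nqo1 and Gpx2 were not called. Without hypothalamus replicate 4, Nqo1 (0.30, adjusted p = 0.0423) and Mafg (0.29, adjusted p = 0.0366) were called higher in liver, while in the authors' normalized values both were called higher in hypothalamus. That median changed sign with the scaling, to -0.063 with median scaling and -0.20 in the table that the authors normalized.

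**Figure D4:**
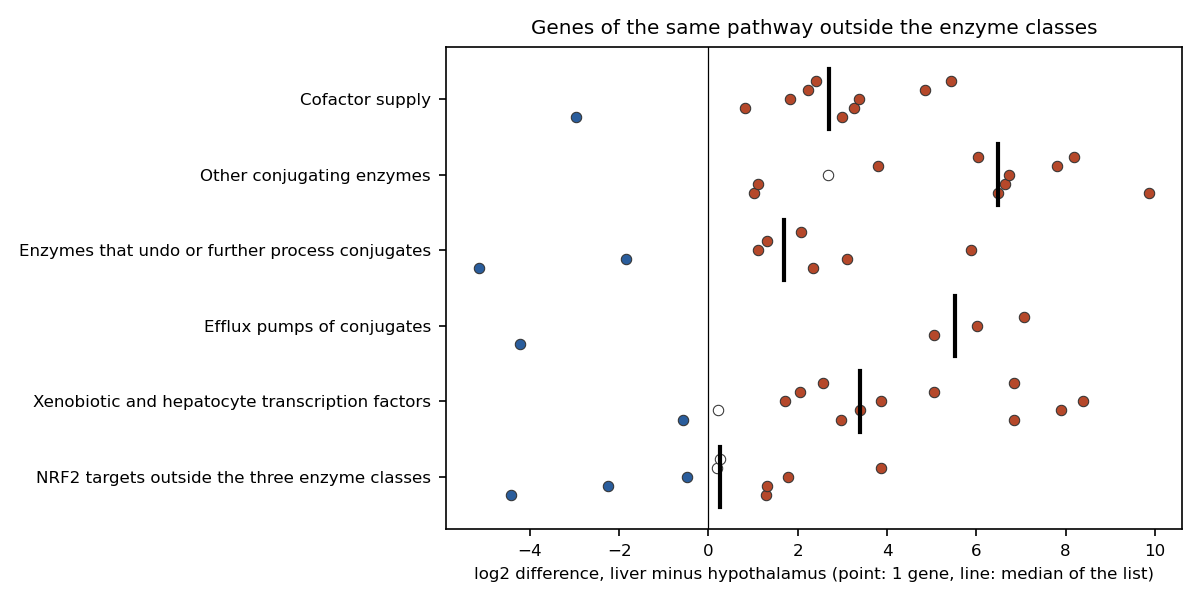
Log2 difference, liver minus hypothalamus, of each tested gene in 6 lists of pathway genes outside the enzyme classes, with the median of each list as a vertical line and open points not called. The lists lie mainly right of 0, with medians from 1.69 to 6.49, except the NRF2 targets at 0.26.

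The DNA before the start sites was then compared among the members. A window was found for 48 of the 52 genes, and the first one listed was used. Genes were grouped by where their probe of highest mean was detected. A further Sult5a1 probe was detected on 1 hypothalamus array, and a further Sult2b1 probe on 1 liver array. In these groups, the number of CG dinucleotides in the 250 bases had a median of 1.5 (range 0 to 5) in the 14 genes detected on no hypothalamus array. It was 10 (0 to 32) in the 19 genes detected in both tissues. The 13 genes with no tested probe had a median of 1 (0 to 4), below that of the genes detected on no hypothalamus array. The count was 10 in Sult2b1 and 16 in Gsto2, whose probes of highest mean were detected on no liver array. Sult4a1 had no window. The median over all genes of the table was 6. GC content followed the same order, with medians of 42.4% and 55.6%, 36% in the untested genes and 52% over all genes. As printed above, Ugt3a1, Ugt2a3, Ugt1a10 and Gsta3 had 0 to 2 CG dinucleotides, while Gstm5 had 13 and Ugt8a 32. The count did not separate the directions, since genes higher in liver such as Gstz1 (13) and Gstp1 (18) had high counts too. Neighbouring genes share their base composition, so these are descriptions and no test was made.

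**Figure D5:**
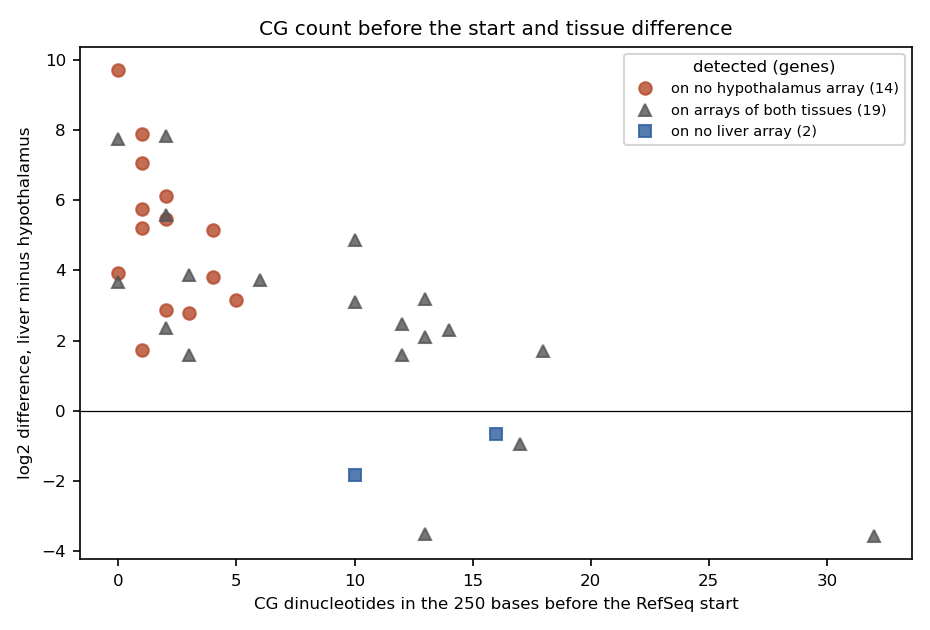
Number of CG dinucleotides in the 250 bases before the RefSeq start against the log2 difference, liver minus hypothalamus, for the 35 tested member genes with a window. Genes whose probe of highest mean was detected on no hypothalamus array lie at 0 to 5. Genes with negative differences lie at 10 to 32. Several genes higher in liver also lie in that upper range, such as Gstk1 at 10, Gstz1 at 13 and Gstp1 at 18.

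Motif letters were searched on both strands in the same windows. The HNF1 motif, GTTAAT followed after any 2 bases by TTAA, occurred in 2 of the 48 members, Ugt3a1 at position -129 and Ugt2a3 at position -54 relative to the start, and in 0.137% of all genes. Its core GTTAAT, which lies inside the longer motif, occurred in 8 members (16.7%) and in 6.52% of all genes, including twin copies at -100 and -71 in Ugt1a10. The antioxidant response element core TGACNNNGC was found in 3 members, against 10.1% of all genes, the GC box GGGCGG in 14 (29.2%, against 32.9%), TATAAA in 8 (16.7%, against 13.0%) and the FOXA motif TGTTTAC in 4 (8.33%, against 3.09%). A match is a stretch of letters and no evidence of binding. The search covered 16 strings in all. Members matched TTNNNCAA in 26 cases (54.2%, against 33.6%), GCGTG in 8 (16.7%, against 28.2%), TGTTTGC in 3 (6.25%, against 4.3%) and TGACNNNGC followed by A, which contains the shorter core, in 1 (2.08%, against 2.4%). CACGTG, CAAAGTCCA, TTGCGCAA, TTCAGCACC, a pair of AGGTCA repeats and a pair of facing GTTAAT copies, each pair 1 base apart, matched in none, which says only that these letters are not in these windows.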

How the data were processed

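The authors deposited linear probe intensity without normalization between arrays, and with it a detection p-value for each array. Their further table of normalized intensity, whose method is not stated, served as an alternative. The tools lumi 2.10.0 and R 2.15.0 stand in the submitters' processing notes without a role. Gene symbols came from the platform annotation, and all 72 member probes were found by gene ID in the RefSeq table.

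Signals were corrected by normexp with negative controls inferred from detection p-values (offset 16), quantile-normalized over 8 arrays and log2-transformed, with limma 3.58.1 in R 4.3.3. Quantile normalization makes differences relative to the bulk of probes, and normexp widens those of dim probes. The number of arrays (4 per tissue) limits the precision. The two-sided test came from lmFit and eBayes, and the model held tissue alone. Simulated data for liver minus hypothalamus held 13498 probes, with 50 changed at each of 4 sizes. Of each 50, limma recovered 11, 32, 47 and 50 at changes of 0.5, 1, 2 and 4 on the log2 scale. Among its 150 calls, 10 were false. Far fewer probes were changed there than the 10741 called in the data, which alters the adjustment. The recovered counts therefore do not give the sensitivity in these data.

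Lists were represented by each gene's probe of highest mean. Named were, per class, up to 6 genes with the largest difference in each direction, genes not called or with discordant probes, those of highest SD within a tissue, and Gstp1 and Sult4a1, the members of highest normalized level, which are not ranked in the text because probes differ in response. Other members are given for completeness. In each list, up to 3 called genes of the main direction and 1 of the other were named. Further genes (Tpmt, Nqo1, Gpx2, Mafg, Arsb, Papss2, Slc6a13, Acta2, Col1a1, Col1a2, Tagln, Hba-a1, Alas2, Slc4a1) were chosen after their values were seen, as were the motifs and the 6 sequences. Members and lists were chosen with earlier results of these data known. The deviations of same-numbered samples from their tissue means correlated at 0.116, 0.095, 0.030 and 0.115, which did not establish a pairing.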

Additional observations from a re-analysis of the deposited data

Results flagged for a closer look

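Among 79 sets of 4 arrays, 4 had 1 array far from the other 3, which lay close together. By chance about 1 in 20 sets does so. Ugt1a2 read 7.54 on liver replicate 2, above 7.17 to 7.22 on the other liver arrays. Gstp1 (ILMN_1223230) read 14.01 on liver replicate 4, below 14.27 to 14.31. Gstt1 read 11.89 on liver replicate 2, below 12.05 to 12.07. Gstp2 read 5.54 on hypothalamus replicate 3, below 5.63 to 5.64. In each case the array lay within its own tissue's side of the difference between liver and hypothalamus.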

How the results depend on the processing

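Of the 54 tested member probes, 51 kept their call and direction under every alternative that tested them. The exceptions were Gsta4, Gstm1 (ILMN_2626491) and Sult2b1 (ILMN_2791179). Gsta4 was -0.30 in the authors' normalized values (adjusted p = 0.00681). Gstm1 was called at -0.70 with median scaling (adjusted p = 0.0277) and -0.42 in the authors' values (adjusted p = 0.00514). Sult2b1 lost its call as given above. Median scaling moved the median of all tested probes to -0.49 and the authors' values to -0.39, and the share of called probes higher in liver was 47.5% in the main normalization, 34.4% with median scaling and 28.6% in the authors' values. The cause of these shifts was not tested.

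Sizes depended on the background correction. Median differences of glucuronosyltransferases, glutathione transferases and sulfotransferases were 3.01, 1.63 and 1.05 in the authors' values, 3.12, 1.85 and 1.28 without background correction, and 4.29, 2.03 and 2.10 with an offset of 50. The glucuronosyltransferase and sulfotransferase medians were 6.23 and 3.70 with cyclic loess and 4.53 and 0.14 without the filter, which adds undetected probes. With 1 probe per gene the sulfotransferase median was 3.66 and 3 glutathione transferases were higher in hypothalamus. Restricting the test to probes detected on all 8 arrays, chosen after seeing the data, left 6450 calls among all probes, 21 member probes higher in liver and 3 in hypothalamus. By class these were 1 glucuronosyltransferase in liver and 0 in hypothalamus (median 7.75), 3 glutathione transferases in hypothalamus, and 1 sulfotransferase in liver and 0 in hypothalamus (median 3.66).

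List medians moved likewise. With median scaling they were 2.15 for cofactor supply, 1.37 for processing of conjugates, 2.90 for transcription factors and -0.063 for NRF2 targets. With cyclic loess they were 2.99 for cofactor supply, 7.02 for other conjugating enzymes, 6.27 for efflux pumps and 3.70 for transcription factors. For cofactor supply, other conjugating enzymes, processing, efflux and transcription factors they were 1.18, 3.93, 0.99, 2.98 and 1.39 in the authors' values, 1.499, 3.93, 1.38, 3.10 and 1.66 without background correction, 1.99, 5.16, 1.53, 4.26 and 2.56 with an offset of 50, and 2.32, 6.04, 1.21, 0.094 and 2.76 without the filter. For NRF2 targets they were -0.20, 0.082 and 0.73 in the authors' values, without background correction and without the filter. In the authors' values 2 transcription factors and 5 NRF2 targets were higher in hypothalamus. With detection at 0.01 the medians were 2.07 for processing and 3.63 for transcription factors. Leaving out 1 array gave medians of 3.31 to 3.50 for transcription factors and 0.20 to 0.51 for NRF2 targets, where the 0.51 was without liver replicate 1. Nqo1 turned to -0.65 with median scaling (adjusted p = 0.00185) and -0.38 in the authors' values (adjusted p = 0.000516), where Mafg was -0.27 (adjusted p = 0.00934) and Gpx2 -0.20 (adjusted p = 0.0495). Without hypothalamus replicate 4 Nqo1 and Mafg were instead called higher in liver, as given above.

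With the replicate number as a block, 10750 probes were called, against 10741, members stayed at 43 and 9, and Tpmt became called (adjusted p = 0.0265), so 11 other conjugating enzymes were higher in liver. Each of the 8 samples correlated best with its own number in the other tissue, which is a hint from the data and not from the design.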
